A study of Mus musculus with 8 samples.

Results

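The RNA of bone marrow cultures from Mettl3 fl/fl mice, the control genotype of the series, was described on its own, gene by gene, without a contrast to the knockout. The genes were chosen by their counts. Each has a name in the deposited expression table and at least 10 estimated counts in both control libraries, and 14735 of the 47643 named genes met this. The 2 libraries, WT replicate 1 and WT replicate 2, are 2 of the 8 samples of the series. In these mice exons of Mettl3, which encodes the enzyme that writes N6-methyladenosine (m6A) on mRNA, are flanked by loxP sites, and the control littermates, labelled wild type, lack the Prx1-Cre of the knockout. Marrow of the mice, with the strain labelled C57BL/6, was flushed from tibiae and femurs, and the plated cells were named mesenchymal stem cells (MSCs) by the study. They were kept for 2 days in osteogenic medium, with ascorbic acid at 50 µg/ml, β-glycerophosphate at 5 mM and dexamethasone at 100 nM, and with 10% serum, penicillin (100 units/ml) and streptomycin (100 µg/ml). The labels do not say whether the libraries came from separate animals or cultures, so the spread given below may be technical.

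Marrow MSCs are stromal progenitors that can form osteoblasts, chondrocytes and adipocytes, and they are commonly obtained as the marrow cells that attach to plastic. Attachment is not specific to them, since marrow macrophages, which engulf debris and process lipid and iron in their lysosomes, attach as well. Osteogenic medium supplies ascorbic acid for collagen hydroxylation, phosphate for mineral, and the synthetic glucocorticoid dexamethasone.

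The libraries held 34069228 counts in replicate 1 and 28666384 in replicate 2, and the chosen genes took 99.9% of the counts in each. Levels are given as TPM (transcripts among 1000000), a value per gene length that allows genes to be compared with each other, and depth is given as counts. The median level was 12.7 TPM in replicate 1 and 12.3 TPM in replicate 2. At least 1000 TPM was reached by 143 genes in replicate 1 and by 146 in replicate 2. At least 100 TPM was reached by 1432 and 1425 genes. Just inside the count minimum were Tcf7 with 10 and 11 counts, Pde1c with 17 and 10, and Apoa2 with 14 and 10. Just outside were Xntrpc with 9.96 and 20.5, RP23-172P1.4 with 9.93 and 13.9, and Gm9913 with 19.5 and 9.90.

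Apoe (ENSMUSG00000002985, chr7:19696109-19699188 of GRCm38, minus strand) was the most abundant transcript in both libraries. It encodes apolipoprotein E, a carrier of lipid that macrophages secrete. It held 625683 and 513255 counts, which gave 33083 and 31080 TPM, or 32081 ± 1416 TPM (SD, n = 2). Lyz2 (ENSMUSG00000069516, chr10:117277334-117282274), the lysozyme of myeloid cells, was at 14418 TPM in replicate 1 and 20117 TPM in replicate 2. Ftl1, the ferritin light chain, was at 16471 and 13932 TPM, and Fth1, the ferritin heavy chain, at 9246 and 9757 TPM. The order of Lyz2 and Ftl1 therefore differed between the libraries. Spp1 (ENSMUSG00000029304, chr5:104435118-104441050) encodes osteopontin, a matrix phosphoprotein made by osteoblasts and by macrophages. It was at 6714 TPM in replicate 1 and 16163 TPM in replicate 2, the widest gap among the 10 highest genes.

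Of the 25 genes with the highest mean TPM, 9 encoded cytosolic ribosomal proteins or were pseudogenes of them by symbol, 5 were mitochondrial genes and 11 were others. Beside Apoe, Lyz2, Ftl1, Fth1 and Spp1, the others included Ctsd, the lysosomal protease cathepsin D, at 5459 and 3871 TPM. Cst3, the secreted protease inhibitor cystatin C, was at 3890 and 4597 TPM. Lgals3, the carbohydrate-binding galectin 3, was at 4108 and 5740 TPM, and S100a4, a calcium-binding protein of fibroblasts and macrophages, was at 4921 and 6488 TPM. Eef1a1, the translation elongation factor, was at 5238 and 5061 TPM. The remaining one was Gm11808, a predicted gene, at 4511 and 4182 TPM. Ranked by counts instead, the leading genes after Apoe, Lyz2, Spp1, Ftl1 and mt-Co1 were Ctsb, Ctsd, Eef1a1, Fn1 and Fth1. Ctsb, the lysosomal protease cathepsin B, held 296767 and 186081 counts. Fn1, which encodes the matrix protein fibronectin, held 180571 and 110110 counts but only 940 and 685 TPM, on a listed length of 11685 nt. Of the 25 highest genes by TPM, 11 were also among the 25 highest by counts.

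**Figure D1:**
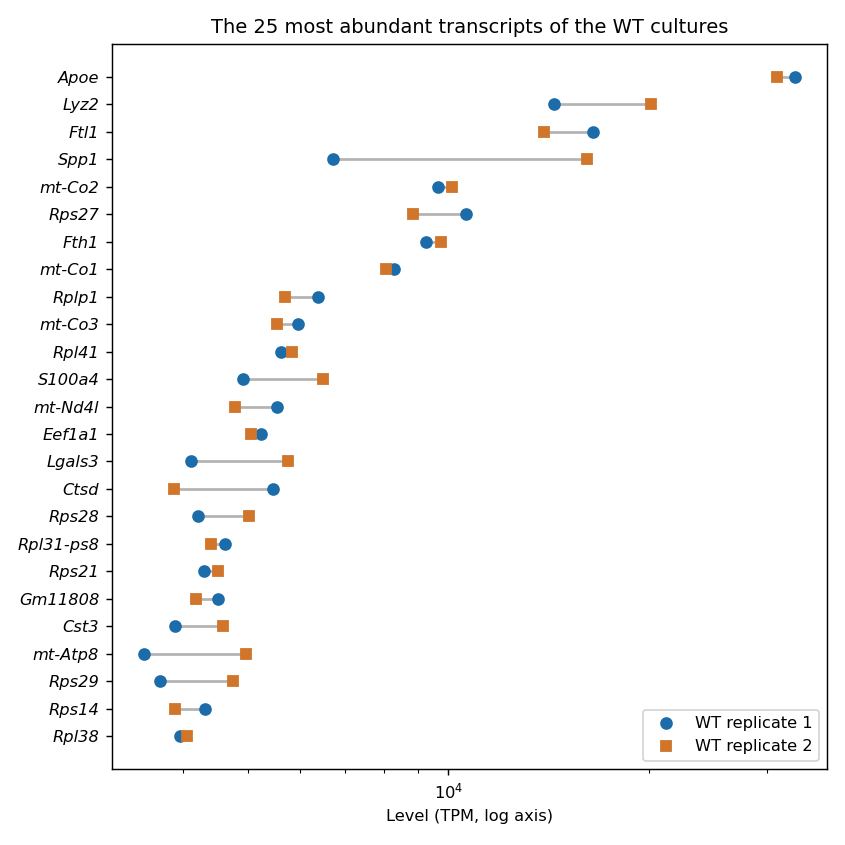
Level in TPM on a log axis of the 25 genes with the highest mean, with a circle for WT replicate 1 and a square for WT replicate 2, joined by a line. Apoe is highest in both libraries at 33083 and 31080 TPM, and Spp1, at 6714 and 16163 TPM, has the longest line of the upper genes.

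The mitochondrial chromosome was represented by its 13 protein-coding genes, and these 13 took 2.28% and 2.37% of the chosen genes' counts. By TPM their share was 5.12% and 5.16%. The cytochrome c oxidase subunits mt-Co2 and mt-Co1 led, at 9663 and 10136 TPM and at 8286 and 8068 TPM, followed by mt-Co3 at 5955 and 5540 TPM. The only one encoded on the other strand, mt-Nd6, was at 1156 and 1172 TPM, and mt-Nd5 was at 1238 and 1056 TPM, the lowest levels of the 13. A per-length value is unstable for the shortest genes. mt-Atp8, with a listed length of 204 nt, reached 3501 and 4964 TPM from 249 and 617 counts, and its neighbour mt-Atp6, which overlaps it on the same strand, held 20473 and 21548 counts.

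Cytosolic ribosomal protein genes formed the largest group by TPM among the families examined. Of 89 genes matched by symbol, 83 met the count minimum. Their TPM summed to 146235 in replicate 1 and 144745 in replicate 2, while they took 3.86% and 4.20% of the counts. Rps27 led at 10635 and 8850 TPM, then Rplp1 at 6383 and 5680 TPM and Rpl41 at 5611 and 5826 TPM. Several of these genes have near-identical pseudogenes, so the split of reads between copies is uncertain.

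**Figure D2:**
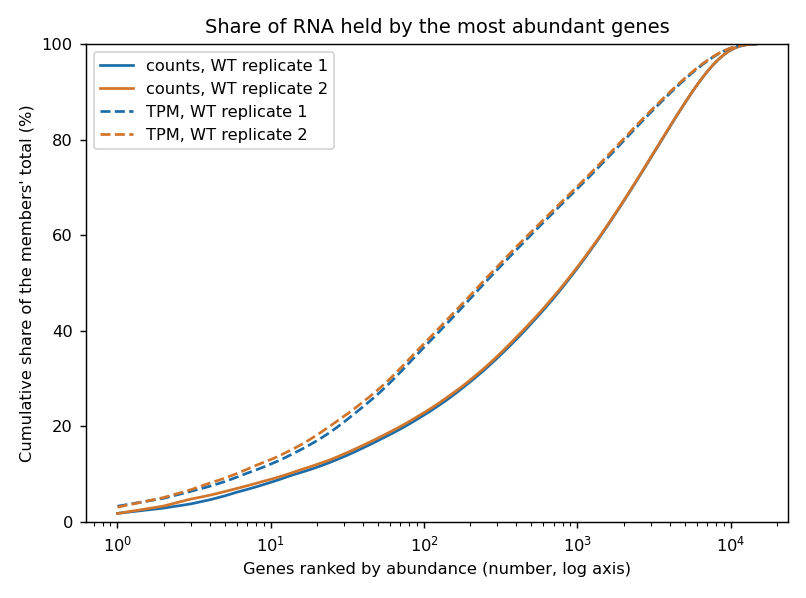
Cumulative share, in percent, of the chosen genes' total against the number of genes ranked by abundance in the same library (log axis), as solid lines for counts and broken lines for TPM. The 100 most abundant genes held 22.4% and 22.9% of the counts and 36.6% and 37.3% of the TPM, and the lines of both libraries lie almost on each other.

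The RNA was concentrated in few genes. The 10 most abundant genes took 8.32% of the counts in replicate 1 and 8.95% in replicate 2, and the 1000 most abundant took 53.1% and 53.4%. Of the 100 genes with the highest TPM in each library, 95 were shared, and of the 100 with the most counts, 93. Abundant transcripts were short, with a median listed length of 1034.5 nt for the 100 highest genes by mean TPM against 4020 nt for the 9735 lowest. In TPM, length also enters the value itself.

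Of the chosen genes, 13351 were annotated as protein coding, 347 as long intergenic noncoding RNA (lincRNA), 298 as unconfirmed transcripts (TEC), 250 as pseudogenes of any kind, 237 as antisense and 211 as processed transcripts, with 41 of other types. Protein-coding genes took 98.5% of the counts in both libraries. Pseudogenes took 0.610% of the counts in replicate 1 (Wilson 95% interval 0.607 to 0.613) and 0.649% in replicate 2 (0.646 to 0.652). Their share of TPM was 3.64% and 3.91%, and 36 of them had a mean of at least 100 TPM. The highest genes outside the protein-coding class were the ribosomal protein pseudogenes Rpl31-ps8 at 4623 and 4399 TPM and Rps23-ps1 at 2348 and 2175 TPM, together with Gm10925, Gm28438 and Gm14303. Gm10925 stood at 3927 and 3595 TPM and Gm28438 at 3517 and 3061 TPM. On chromosome 1 they flank another pseudogene, Gm28437, which was at 323 and 775 TPM. Whether the reads of these chromosome 1 entries came from them or from similar sequences elsewhere was not tested. Gm14303, with a listed length of 171 nt, was listed at 0 TPM in replicate 1 and 5014 TPM in replicate 2 from 79.9 and 185 counts, on a gene too short for a stable value per length.

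lincRNAs took 0.548% of the counts in replicate 1 (0.546 to 0.551) and 0.514% in replicate 2 (0.512 to 0.517). Malat1, a nuclear RNA found in most cells, held 83765 and 71300 counts, at 982 and 1006 TPM. Gas5, a host of small nucleolar RNAs, was at 514 and 492 TPM, and Neat1, the scaffold of nuclear paraspeckles, at 228 and 186 TPM. The 20 long noncoding RNAs listed met the count minimum. Xist, which coats the inactive X chromosome, was at 78.6 and 62.1 TPM, with 27086 and 14900 counts. Of 4 Y-linked genes, Ddx3y, Uty and Eif2s3y were listed at 0 counts and Kdm5d at 39.5 and 14.0 counts, but the positions recorded for these 4 genes cover only part of their length.

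The libraries were then compared with each other as 1 against 1, by the log2 ratio of each gene's share of counts, replicate 2 over replicate 1. With 1 library on each side no test was made. The ratio had a median of -0.0041 and its middle 50% lay from -0.17 to 0.15. A share of 4.59% of the genes (676) were more than 1.5-fold higher in replicate 2, and 4.05% (597) were more than 1.5-fold lower. By TPM in place of the share of counts, 607 were higher and 762 lower. Below, a gene past or within 1.5-fold is so by its share of counts, also where its TPM is printed. In genes with 10 to under 100 mean counts the spread (a robust SD of 0.53 on the log2 scale) was 1.49 times what counting error gives. In genes with at least 10000 mean counts it was 0.17, which is 10.3 times the counting error. The spread left after counting error came to a coefficient of variation of 9.77% over the chosen genes.

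**Figure D3:**
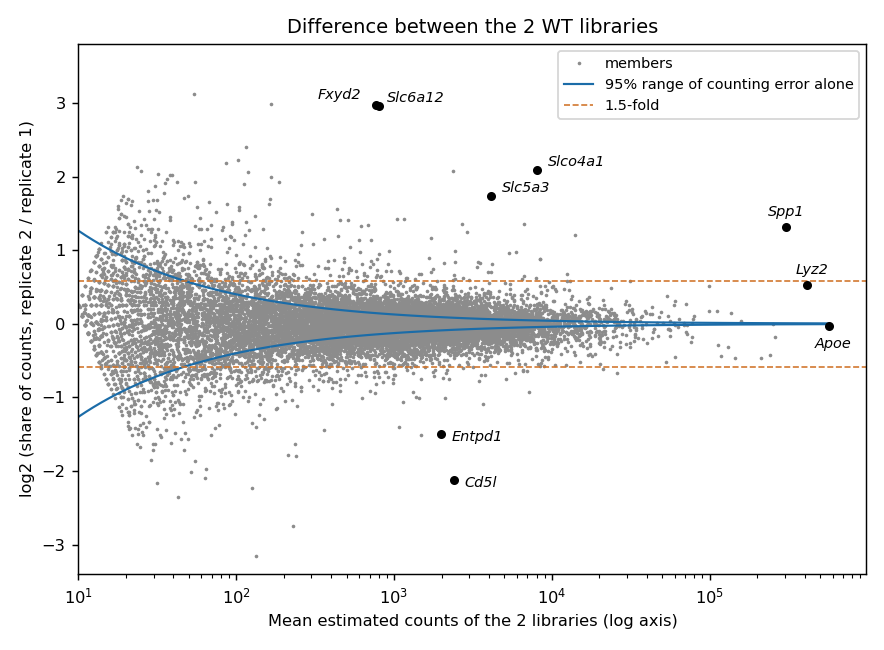
Each point is 1 of the 14735 genes, with its mean estimated counts on a log axis and the log2 ratio of its share of counts in replicate 2 over replicate 1. Blue curves give the 95% range of counting error and broken lines 1.5-fold. At high counts most points lie inside 1.5-fold but outside the counting range, and Slc6a12, Fxyd2, Slco4a1 and Slc5a3 stand above, Cd5l and Entpd1 below.

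Among genes with at least 100 counts in both libraries, the 5 largest gaps with a higher share in replicate 2 included 3 solute transporters and a subunit of the sodium pump complex. Slc6a12, a transporter of betaine, held 204 and 1343 counts, at 7.60 and 52.0 TPM, with a log2 ratio of 2.97 (95% counting interval 2.76 to 3.18). Fxyd2, a regulator of the sodium pump, held 213 and 1389 counts, at 23.3 and 166 TPM, with a log2 ratio of 2.95. Slco4a1, an organic anion transporter, held 3525 and 12642 counts, with a log2 ratio of 2.09. Slc5a3, which imports myo-inositol, held 2152 and 6041 counts, with a log2 ratio of 1.74. Mrps6, which overlaps Slc5a3 on the same strand, held 1940 and 3856 counts. The fifth gene was Gm29216, a pseudogene on chromosome 1 in the neighbourhood of Gm10925, with 1036 and 3684 counts. The interval reflects counting alone, and PCR copies of a molecule cannot be recognised in these libraries.

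The 5 largest gaps in the other direction were those of Cd5l, Gm9794, Gm11518, Entpd1 and Rhobtb1. Cd5l, a protein secreted by tissue macrophages, held 4010 counts in replicate 1 and 777 in replicate 2, at 87.3 and 19.7 TPM, with a log2 ratio of -2.12 (-2.23 to -2.01). Entpd1, an enzyme that hydrolyses extracellular ATP, held 3061 and 912 counts, with a log2 ratio of -1.50. Rhobtb1 held 547 and 169 counts, with a log2 ratio of -1.45. Gm9794 and Gm11518 are processed pseudogenes, with 370 and 101 counts and with 2301 and 681 counts.

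Marker genes of the cell types that marrow cultures can hold were then read from 19 lists. In bulk RNA, fewer cells of a type and less RNA per cell cannot be told apart, so these are levels of RNA and not numbers of cells. Several of the genes named overlap another gene on the other strand (Csf1r with Hmgxb3, Runx2 with Supt3, Tagln with Pcsk7, S100b with Dip2a). The library kit does not mark strand, so their reads may be mixed. Spp1 overlaps Gm42793 on the same strand, and their reads may be mixed as well. The macrophage and monocyte list held the highest summed level of the 19, with 28403 TPM in replicate 1 and 32627 TPM in replicate 2. The mesenchymal stromal list, which names the labelled cell type, summed to 1537 and 1512 TPM. The macrophage sum was 18.5 times the stromal sum in replicate 1 and 21.6 times in replicate 2. By share of counts it was 7.56 and 8.86 times, and by TPM without Lyz2 9.10 and 8.27 times. The early osteoblast list, whose matrix genes the stromal list does not hold, summed to 10576 and 20244 TPM. Spp1, which macrophages also make, held 6714 and 16163 TPM of these sums. The part of macrophage RNA in the levels of genes that both cell types express was not tested.

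Of the 16 macrophage genes, 15 met the count minimum, 12 were above 100 TPM in both libraries, and their median was 551 TPM. After Lyz2 came the 3 chains of complement component C1q, with C1qb at 3279 and 3052 TPM, C1qa at 2727 and 2338 TPM and C1qc at 2647 and 2271 TPM. Within a library C1qa and C1qc lay close together, and their ranges overlapped. Tyrobp, an adaptor of activating myeloid receptors, was at 1798 and 1686 TPM. Csf1r, the receptor for the macrophage growth factor CSF1, was at 477 and 516 TPM, and Adgre1, which encodes the F4/80 antigen, at 309 and 253 TPM. Ptprc, the common leukocyte antigen CD45, was at 57.8 and 58.6 TPM.

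The genes of inflammatory monocytes stood at the other end of the same list. Ccr2, the chemokine receptor of these cells, held 14 and 17 counts, at 0.18 and 0.24 TPM. Ly6c2, their surface antigen, held 20 and 9 counts and was the gene of this list under the minimum, in an entry whose recorded positions cover only part of the gene. Cd14, a coreceptor for lipopolysaccharide, was at 197 TPM in replicate 1 and 352 TPM in replicate 2 and was the gene of the list more than 1.5-fold higher in replicate 2. Mrc1, the mannose receptor, was at 257 and 160 TPM and was the gene more than 1.5-fold lower. The median log2 ratio of the 15 genes was -0.13.

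**Figure D4:**
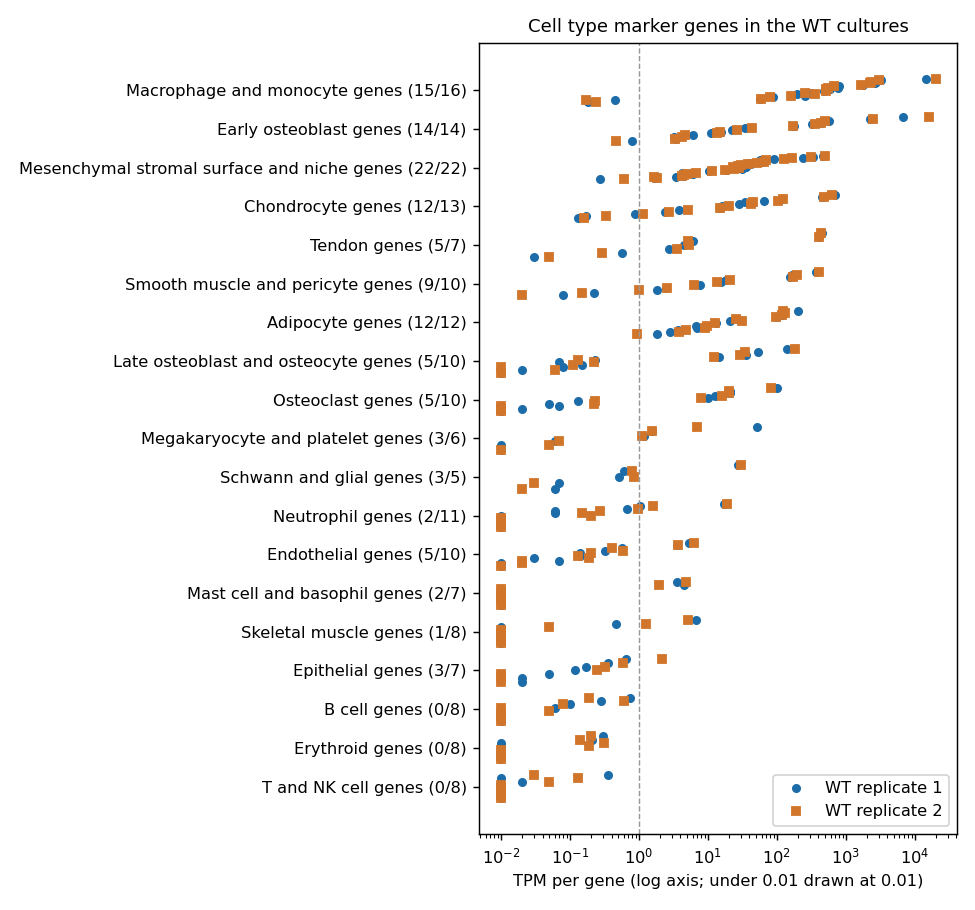
TPM of each marker gene on a log axis, by list, with circles for WT replicate 1, squares for WT replicate 2 and a broken line at 1 TPM. Each list name is followed by the number of its genes that met the count minimum over the number found in the table. The macrophage list reaches the highest levels, at 14418 and 20117 TPM for Lyz2, and no gene of the B cell, erythroid or T and NK cell lists met the minimum.

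The 22 genes of the mesenchymal stromal list met the count minimum, at a median of 28.8 TPM, and 3 of them were above 100 TPM in both libraries. Ly6a, which encodes the SCA1 antigen used to sort mouse MSCs, was at 461 and 493 TPM. Itgb1, the integrin β1 chain, was at 331 and 315 TPM. Cxcl12, the chemokine that retains blood stem cells in marrow, was at 238 and 168 TPM. The platelet-derived growth factor receptors were lower, with Pdgfra at 31.6 and 27.6 TPM and Pdgfrb at 28.4 and 28.2 TPM, and Prrx1, the transcription factor of limb mesenchyme, was at 42.4 and 37.9 TPM. Csf1r was thus 15.1 times Pdgfra in replicate 1 and 18.7 times in replicate 2. The lowest genes of the list were Lepr, the leptin receptor of marrow stroma, with 37 and 35 counts at 0.27 and 0.60 TPM, and Nes, at 1.70 and 1.81 TPM. Thy1, a surface antigen of fibroblasts, was at 3.5 and 1.65 TPM, and it and Vcam1 were the genes of this list more than 1.5-fold lower in replicate 2. None was more than 1.5-fold higher (over all the chosen genes, 4.59% were higher and 4.05% lower).

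The 14 early osteoblast genes met the minimum as well. After Spp1 the highest were the matrix proteins, with Sparc (osteonectin) at 2255 and 2500 TPM, and Col1a2 and Col1a1, the chains of type I collagen, at 569 and 505 TPM and at 434 and 432 TPM. Alpl, the alkaline phosphatase that frees phosphate for mineral, was at 35.1 and 43.1 TPM. Runx2, the transcription factor that commits cells to the osteoblast lineage, was at 15.5 and 15.2 TPM (15.3 ± 0.184, SD, n = 2), from 1162 and 860 counts. Sp7, which encodes osterix and acts after Runx2, was at 3.19 and 4.23 TPM, a level 0.206 and 0.278 times that of Runx2. Dlx5 was at 22.6 and 26.3 TPM, and Pth1r, the parathyroid hormone receptor, at 11.1 and 13.6 TPM. Of the list only Spp1 was more than 1.5-fold higher in replicate 2 and only Dlx3, with 48 and 24 counts, more than 1.5-fold lower.

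Genes of mature osteoblasts and osteocytes were present in part, with 5 of 10 over the minimum. Ibsp, the bone sialoprotein of mineralizing matrix, was at 142 and 184 TPM. Bglap2 and Bglap, the neighbouring and near-identical osteocalcin genes, were at 53.3 and 34.8 TPM and at 14.7 and 12.4 TPM, on no more than 264 counts, and the split of reads between them is uncertain. The 5 genes over the minimum had a median of 32.8 TPM. The osteocyte genes Dmp1, Mepe and Fgf23 were at the limit of detection. Dmp1 held 10 and 6 counts, Mepe 3 and 0, and Fgf23 1 and 2. Phex just met the minimum, and Sost was listed at 0 in an entry whose positions cover only part of the gene. A count of 0 allows up to 0.0881 CPM (counts among 1000000) in replicate 1 and 0.105 in replicate 2.

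Cartilage genes were read next. Of 15 listed, 13 were found and 12 met the minimum. Col2a1, the type II collagen of cartilage, was at 704 and 633 TPM and was the highest collagen gene by mean TPM, 1.62 and 1.46 times Col1a1. Comp, a cartilage matrix protein, was at 459 and 488 TPM, and Col11a1 at 117 and 121 TPM. Acan, the aggrecan core protein, was at 65.4 and 103 TPM. Col10a1, the collagen of hypertrophic chondrocytes, was at 28.5 and 42.7 TPM, and it overlaps Nt5dc1 on the other strand. Sox9, the transcription factor that directs chondrogenesis, was at 16.0 and 20.4 TPM, 1.04 and 1.34 times Runx2, and Matn1 held 6 counts in each library. The median log2 ratio of the 12 genes was 0.36. Of the 12, 2 were more than 1.5-fold higher in replicate 2 (4.59% over all the chosen genes). These were Col10a1 and Matn3, the latter on 12 and 20 counts.

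The 12 adipocyte genes met the minimum. Cd36, a fatty acid receptor that macrophages also carry, was at 204 TPM in replicate 1 and 121 TPM in replicate 2. Fabp4, a fatty acid binding protein of adipocytes and macrophages, was at 121 and 130 TPM, and Cebpa, a transcription factor of adipocytes and myeloid cells, at 118 and 120 TPM. Pparg, the nuclear receptor that drives adipogenesis, was lower, at 13.1 and 12.6 TPM. Of genes closer to the adipocyte itself, Adipoq (adiponectin) was at 27.1 and 25.2 TPM, Plin1, which coats lipid droplets, at 6.81 and 9.65 TPM, and Lep (leptin) at 1.81 and 0.95 TPM. Lipoprotein lipase, Lpl, was at 102 and 96.9 TPM, and hormone-sensitive lipase, Lipe, at 3.67 and 4.81 TPM.

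**Figure D5:**
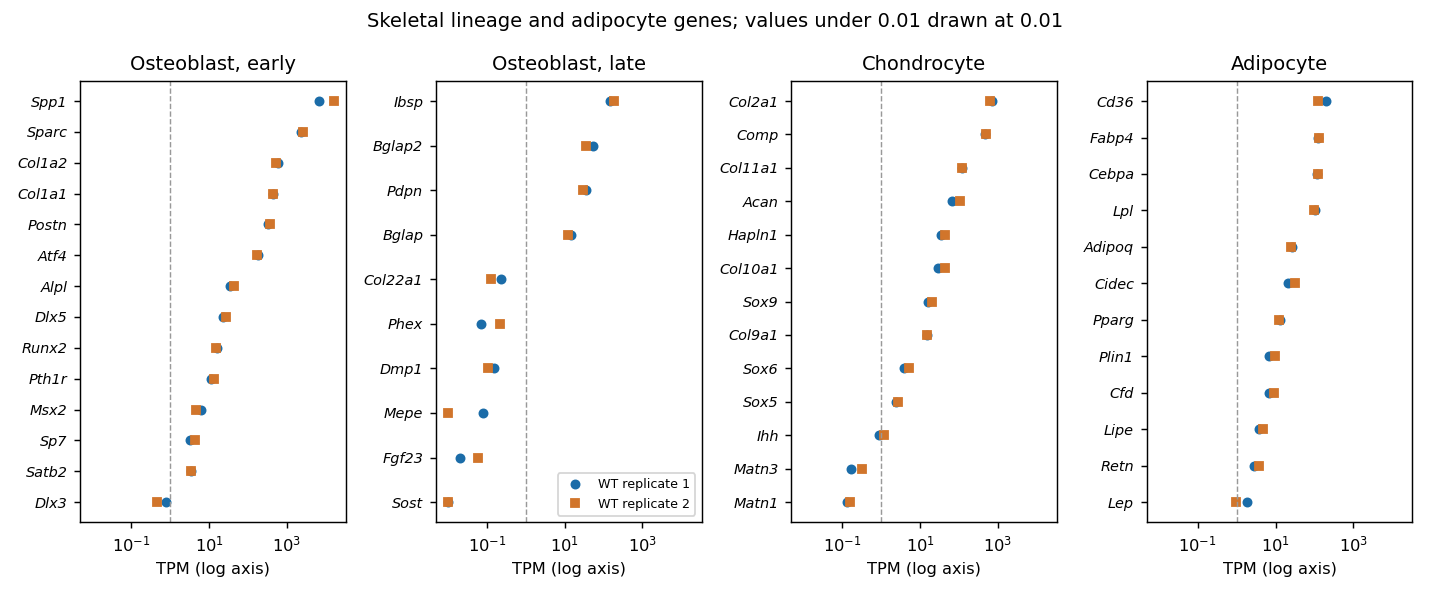
TPM of the genes of 4 lineage lists on a shared log axis, with circles for WT replicate 1, squares for WT replicate 2 and a broken line at 1 TPM. Matrix genes head the osteoblast and chondrocyte panels (Spp1 at 6714 and 16163 TPM, Col2a1 at 704 and 633 TPM), the transcription factors Runx2 and Sox9 lie from 15.2 to 20.4 TPM, and Dmp1, Mepe and Fgf23 lie under 1 TPM.

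Mettl3 itself, the gene deleted in the knockout group of the series, was at 16.9 and 15.8 TPM (16.3 ± 0.778, SD, n = 2), from 596 and 478 counts, and ranked 6491 of the 14735 genes by TPM. It overlaps Tox4, which lies on the other strand. Of the 15 genes listed for the study, all but Lpl and Lipe are named in its text. The 15 genes met the minimum. None of them differed by more than 1.5-fold between the libraries by share of counts (over all the chosen genes, 4.59% higher and 4.05% lower). Cd36, at 204 and 121 TPM, did by TPM, and its log2 ratio by share of counts was -0.57.

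Lists of neighbouring connective tissues gave intermediate levels. In the tendon list 5 of 7 genes met the minimum, and Fmod (fibromodulin), at 453 and 440 TPM, and Col12a1, at 409 and 407 TPM, made up most of the sum. Scx, the tendon transcription factor, was at 4.47 and 5.38 TPM and overlaps Bop1, and Mkx was at 6.02 and 5.19 TPM, while Tnmd held 16 and 7 counts and Thbs4 2 and 3. In the smooth muscle and pericyte list 9 of 10 met it. Acta2, smooth muscle α-actin, was at 367 and 409 TPM, Tagln (transgelin) at 168 and 195 TPM and Myl9 at 155 and 172 TPM. The contractile myosin Myh11 was at only 2.49 and 2.56 TPM, and Kcnj8 held 4 and 1 counts.

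Marker lists of other marrow cells had lower sums than the marker lists above. The osteoclast list summed to 167 and 147 TPM. In it 5 of 10 genes met the minimum, at a median of 20.5 TPM, led by Ctsk (cathepsin K) at 102 and 82.6 TPM. Nfatc1 was at 21.1 and 19.9 TPM, Tnfrsf11a (RANK) at 21.0 and 19.96 TPM and Atp6v0d2 at 10.1 and 7.93 TPM. Calcr, the calcitonin receptor, was at 0 counts in both, and the fusion genes Dcstamp and Ocstamp held 1 and 0 and 6 and 0 counts. In the neutrophil list S100a8 was at 17.2 and 18.7 TPM and Camp held 13 and 18 counts. Elane held 1 and 4 counts, Ngp 0 in both, and S100a9, Mpo, Ltf and Retnlg were listed at 0 in entries with partial positions. In the megakaryocyte list Pf4, platelet factor 4, was at 50.9 TPM in replicate 1 and 6.91 TPM in replicate 2, from 408 and 51 counts. In the mast cell list Kit held 256 and 208 counts and Mcpt8 was at 3.53 and 4.74 TPM, while Cpa3 and 4 others were listed at 0. Of these 5 genes, 4 were in entries with partial positions.

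No gene of the B cell, T and NK cell or erythroid lists met the minimum. Their sums were at most 1.17 TPM, with Cd79a at 3 and 2 counts, Cd4 at 26 and 2, and the globin gene Hba-a1 at 0 and 1. Ms4a1 and Cd3g were at 0 counts in both. Of the genes at 0 in both libraries, 2 of 3 B cell, 4 of 5 T and NK cell and 2 of 4 erythroid genes had partial positions. In the endothelial list 5 of 10 met it, at a median of 0.48 TPM, with Egfl7 at 5.38 and 6.23 TPM, Vwf at 3.61 and 3.71 TPM and Kdr at 0.56 and 0.40 TPM, and Cldn5 was at 0. S100b, a calcium-binding protein of Schwann cells and chondrocytes, was at 27.6 and 29.7 TPM, while Sox10 stayed under 1 TPM. Among epithelial genes Krt8 held 26 and 73 counts, Epcam 16 and 23, and Cdh1 12 and 23. Of the skeletal muscle list only Acta1 met the minimum, at 6.74 and 5.21 TPM, and Pax7, Myf5, Myod1 and Myog were listed at 0 in entries with partial positions.

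Many matrix genes were transcribed. Over all named protein-coding genes 60.8% met the count minimum. Of 44 collagen chain genes, 33 met the minimum, and they summed to 4734 and 4736 TPM, or 0.473% and 0.474% of the TPM. Their transcripts are long, and they took 1.87% and 1.82% of the counts. By mean TPM Col2a1 was followed by Col6a1 at 592 and 699 TPM and Col6a2 at 529 and 681 TPM, chains of the microfibrillar type VI collagen, both above Col2a1 in replicate 2. Col3a1, which accompanies type I collagen in soft tissue, was at 276 and 247 TPM. The 17 genes that modify, fold and crosslink collagen met the minimum. None differed by more than 1.5-fold (over all the chosen genes, 4.59% higher and 4.05% lower). Lox, the lysyl oxidase that crosslinks fibrils, was at 806 and 726 TPM, Pcolce, which enhances removal of the procollagen tail, at 690 and 809 TPM, and P4hb, a subunit of prolyl hydroxylase, at 435 and 441 TPM.

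Matricellular and proteoglycan genes summed to 15207 and 24794 TPM, led by Spp1 and Sparc. Bgn (biglycan) was at 880 and 825 TPM and Dcn (decorin) at 421 and 498 TPM. Among metalloproteinases 14 of 23 met the minimum, led by Mmp13, the collagenase of cartilage and bone, at 335 and 348 TPM, and the membrane-bound Mmp14 at 171 and 133 TPM. Mmp9 held 1 count in each library. Over all named protein-coding genes 60.8% met the minimum. Among the cathepsins, 12 of 23 met it, with a sum of 13338 TPM in replicate 1 and 10909 TPM in replicate 2. Ctsd and Ctsb led, followed by Ctss, the cathepsin of antigen-presenting cells, at 1961 and 1921 TPM.

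The 28 cell cycle genes met the minimum. Cdkn1a, the inhibitor p21, was highest at 377 and 333 TPM, followed by Pcna, the sliding clamp of replication, at 213 and 210 TPM, and Ccnd3 (cyclin D3) at 113 and 119 TPM. Mki67, the proliferation antigen, was at 13.6 and 13.1 TPM, so that Cdkn1a was 27.7 and 25.4 times Mki67. Cdkn2a was at 102 and 106 TPM.

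The 12 genes known to respond to glucocorticoid met the minimum, with no untreated culture to set them against. The metallothioneins Mt1 and Mt2 were at 3789 and 2748 TPM and at 3032 and 2560 TPM, and Fkbp5, a chaperone partner of the receptor, at 277 and 233 TPM. The receptor gene, Nr3c1, was at 17.8 and 17.01 TPM. Of the 19 immediate early genes Junb led at 309 and 344 TPM, then Nr4a1 at 162 and 168 TPM and Jun at 98.0 and 103 TPM, whereas Fos was at 21.9 and 26.0 TPM and Egr1 at 2.75 and 3.51 TPM. None of these 12 and 19 genes differed by more than 1.5-fold by share of counts (4.59% higher and 4.05% lower over all chosen genes). By TPM Egr2 did, at 1.85 and 1.09 TPM.

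Genes that are often used as references in PCR spanned a wide range. Of 16, Eef1a1 was highest, B2m was at 2669 and 2210 TPM and Gapdh at 1961 and 2075 TPM, while Tbp was at 18.6 and 19.4 TPM. The median log2 ratio over the 16 was 0.02. Of the actin cytoskeleton genes, all 22 over the minimum, Tmsb4x (thymosin β4) was at 3844 and 3360 TPM, Vim (vimentin) at 1991 and 2180 TPM and Cfl1 (cofilin) at 1719 and 1759 TPM. In the endoplasmic reticulum the 15 folding genes met the minimum, led by Calr (calreticulin) at 725 and 634 TPM, Ppib at 454 and 427 TPM and Manf at 447 and 438 TPM, and Manf overlaps Rbm15b.

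Of the transcription factor families, 24 of 39 Hox genes met the minimum, with Hoxa10 at 38.1 and 44.9 TPM, Hoxa9 at 26.4 and 33.6 TPM and Hoxa11 at 18.9 and 20.5 TPM. These are posterior members of the A cluster, which pattern the limb. Over all named protein-coding genes 60.8% met the minimum. Of 44 forkhead genes 26 met it, with Foxc1, a factor of marrow stroma, at 39.9 and 52.1 TPM and Foxc2 at 29.9 and 32.5 TPM. Sox4 led the Sox genes at 26.2 and 25.2 TPM, Klf4 the Klf genes at 144 and 134 TPM. The Zfp zinc finger genes were numerous and low, with 330 of 367 over the minimum at a median of 3.82 TPM.

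Families of secreted signals were read last. The share of all named protein-coding genes over the minimum, to set beside theirs, was 60.8%. Of 19 Wnt genes 8 met the minimum, and Wnt11 was highest at 11.3 and 13.1 TPM. Of 22 fibroblast growth factors 8 met it, with Fgf7 at 65.2 and 58.5 TPM. Of 21 Bmp and Gdf genes 14 met it, of which 4 were more than 1.5-fold lower in replicate 2 (4.05% over all the chosen genes), among them Gdf15 at 63.2 and 32.3 TPM. Bmp2 held 63 and 32 counts. Bmp1, a protease despite its name, was at 66.1 and 71.5 TPM. Of 40 chemokine genes 16 met the minimum, with Cxcl12 at 238 and 168 TPM, Ccl9 at 168 and 235 TPM and Ccl7 at 91.8 and 99.0 TPM. Of 33 interleukin genes 9 met it, with Il34, the second ligand of Csf1r, at 15.6 and 19.3 TPM, Il6 at 13.4 and 16.0 TPM, and Il1b at 1 and 4 counts.

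The 21 imprinted genes met the minimum. Mest was highest at 102 and 117 TPM, then Impact at 72.6 and 63.2 TPM and Igf2r at 46.3 and 40.8 TPM, and H19 was at 33.5 and 44.8 TPM. The growth factor Igf2 was at 2.10 and 2.86 TPM, and Dlk1, an inhibitor of adipogenesis, at 0.64 and 0.57 TPM. At the other extreme, 3 of 1102 olfactory receptor genes and 2 of 327 vomeronasal receptor genes met the minimum, and 5 of 51 keratin genes. All 28 keratin genes listed at 0 in both libraries were in entries with partial positions. The same held for 243 of the 1054 olfactory receptor genes at 0 and 125 of the 311 vomeronasal receptor genes at 0.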

How the data were processed

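RNA-seq libraries were made from polyadenylated RNA with a NEBNext Ultra kit, which does not mark strand, and sequenced on a HiSeq 2500. The authors controlled read quality with FastQC and the FASTX toolkit, mapped the reads with HISAT2 (version 2.0.4 in the submitters' processing notes) and analysed genes with Ballgown. The counting step is not given in the sources used here. The deposited counts are estimated counts, not normalized by the authors, and some hold decimals. The deposited column headed FPKM sums to 1000000 in each library, so it was read as TPM. It is not the count over the listed gene length alone, so a gene's TPM and its share of counts can differ in direction between the libraries, as for Lrp1 and Kit. The ratio of the column to that quantity ran from 0.508 to 2.45 between the 5th and 95th percentile in WT replicate 1. Gene positions overlapped those of the same symbol in GRCm38.p6 for 13375 of 13386 genes, and that build is used here.

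The 89 entries without a name held 0.110% and 0.112% of the counts and were left out of library sizes. CPM were taken over the named genes. Where a symbol had more than 1 entry, the one with the most counts was used. The recorded positions of 9497 named genes span less than their listed length, and 8622 of these were at 0 counts in both libraries, so such a 0 is given as listed.

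No test was made, since there is 1 condition with 2 libraries. Values are given per library, as mean ± SD, with Wilson 95% intervals for shares of counts and normal intervals on the log2 ratio from the counts, made in Python 3.11.15 with scipy 1.17.1. TMM factors came from edgeR. The estimate of spread beyond counting was tested on simulated data. Intervals cover counting error, and a count of 0 allows 3 counts. The members, the 31 lists and the 25 families were chosen with earlier results of these data known. The genes named are the 25 highest by TPM and 10 by counts, the 5 highest outside the protein-coding class, the 3 highest of a list and its defining genes under the minimum, the genes the study names, the 5 largest differences each way with at least 100 counts, and the 3 genes on each side of the minimum. Other genes were named after their values were seen. Some genes that the rule gives are covered by their list's counts alone. Columns of the knockout libraries and the m6A peak list were not used here. Alternatives were other count minimums, scalings, TPM in place of counts and each library left out.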

Additional observations from a re-analysis of the deposited data

Results flagged for a closer look

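Entries of the expression table without a gene name lie outside the comparisons above and held reads in both libraries. These 89 entries summed to 37465 counts in WT replicate 1 and 32225 counts in WT replicate 2, far above the 3 counts that a count of 0 allows. With 2 libraries in the group, no test for a library that stands apart from the others can be made.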

How the results depend on the processing

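No paired analysis was possible because no groups were compared. The number of genes that met the minimum stayed within 1.5 times of 14735 under each alternative, from 12398 at 50 counts to 15841 at 5. Read as TPM in place of counts, the protein-coding share was 95.5%, the lincRNA share 0.311%, the pseudogene share 3.78% and the mitochondrial share 5.14%, and the 10, 100 and 1000 most abundant genes held 12.6%, 37.0% and 70.0%. Over all named genes the protein-coding share was 98.4%. With mitochondrial genes left out, the 100 and 1000 most abundant genes held 21.6% and 52.3%. Ranked by counts, 6 of the 10 highest genes by TPM stayed among the 10 highest. The macrophage sum was 20.03 times the stromal sum as a mean by TPM and 8.21 times by share of counts, and 18.5 to 21.6 times with a library left out. With at least 50 or 200 counts, 235 and 103 genes were over 1.5-fold higher in replicate 2 and 233 and 88 lower. Past 2-fold there were 205 higher and 143 lower. TMM, median-of-ratios and TPM scalings gave 607 to 688 higher and 588 to 762 lower. The coefficient of variation was 9.21% and 8.51% at those 2 minimums. Medians of the log2 ratio moved by more than the spread between libraries in 11 of 212 alternatives, in lists of few or low genes. Depth limits the genes near the minimum, where 10 counts are 0.294 and 0.349 CPM.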

Other observations

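Further groups were read after the levels had been seen, so their lists were chosen on these data and carry no test. Genes of lysosomal hydrolases and membrane proteins, 21 listed and 21 over the minimum, summed to 9356 and 8206 TPM. Cd63 led at 2405 and 2347 TPM, and Psap, the precursor of the saposins that aid sphingolipid breakdown, was at 2368 and 1717 TPM. The 16 genes of the vacuolar ATPase, which acidifies lysosomes, summed to 5512 and 4927 TPM, with Atp6v0c highest at 1213 and 996 TPM. Among 17 genes of lipoprotein and cholesterol handling, Gpnmb was at 1848 and 1441 TPM, the receptor Lrp1 at 1219 and 1301 TPM, and Trem2, a lipid receptor of macrophages, at 800 and 641 TPM, beside Apoe. Apoc2, which neighbours Apoe, was at 130 TPM in replicate 1 and 270 TPM in replicate 2. Hmox1, the heme oxygenase, was at 807 and 733 TPM, and Slc40a1, the iron exporter ferroportin, at 66.3 and 30.2 TPM. MHC class I genes were high, with H2-D1 at 1064.8 and 1000.5 TPM, and 5 of 7 MHC class II genes met the minimum. Of these H2-DMb1 was highest at 26.5 and 23.5 TPM, then H2-DMa at 11.6 and 15.0 TPM and H2-Ab1 at 11.8 and 12.4 TPM, while H2-Eb1 was at 1.74 and 2.28 TPM and Cd74, the invariant chain, at 0.78 and 2.94 TPM. H2-Aa held 6 and 11 counts, and Ciita, the transactivator of the class, 3 and 6.

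The m6A machinery was expressed at moderate levels, with 17 genes of the list found and 17 over the minimum. Wtap, the writer's regulatory subunit, was highest at 89.6 and 93.2 TPM, above Mettl3 at 16.9 and 15.8 TPM and Mettl14 at 9.20 and 8.58 TPM. The eraser genes Alkbh5 and Fto were at 30.6 and 27.2 TPM and at 26.5 and 26.5 TPM. Of the readers Ythdf3 led at 46.2 and 44.1 TPM, and Igf2bp1 held 22 counts in each library. None of the 17 differed by more than 1.5-fold by share of counts (4.59% higher and 4.05% lower over all chosen genes). By TPM Igf2bp3 did, at 2.08 and 1.03 TPM. Of the receptors for osteogenic signals Fgfr1 was highest at 95.9 and 90.6 TPM and Tgfbr2 next at 85.6 and 79.3 TPM. On the parathyroid hormone pathway Gnas, the stimulatory G protein, was at 733 and 719 TPM, and the ligand gene Pthlh held 0 and 2 counts.

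The last lists were filled partly with genes whose gaps between the libraries had been seen, so their counts in part restate that choice. Over all the chosen genes 4.59% were more than 1.5-fold higher in replicate 2 and 4.05% lower, by share of counts. Their median log2 ratio was -0.0041, so nearly as many of them lay above 0 as below it. In a list of 14 osmolyte and ion transport genes, 4 were more than 1.5-fold higher in replicate 2 and none lower. These 4 were Slc6a12, Slc5a3, Fxyd2 and Atp1b1, the last at 11.7 and 31.7 TPM. Akr1b3, the aldose reductase that makes sorbitol, was at 156 and 222 TPM, with a log2 ratio of 0.55 that did not pass. Nfat5, a transcription factor of the response to hypertonicity, was at 19.7 and 16.5 TPM, and Slc6a6, the taurine transporter, at 224 and 216 TPM. Of the heat shock genes, Hspa1b was at 25.8 and 64.8 TPM and Hspa1a at 4.27 and 9.65 TPM, while Hspa8 was at 918 and 958 TPM. In the interferon-stimulated list, of 16 genes over the minimum, 9 were more than 1.5-fold lower in replicate 2 and none had a log2 ratio above 0, with Ifi27l2a at 343 and 142 TPM and Irf7 at 14.2 and 8.17 TPM. Of the 15 glycolysis genes 14 had a log2 ratio above 0 and none passed 1.5-fold, with Pkm at 1585 and 2231 TPM. With 1 library on each side the gaps cannot be told apart from differences between cultures, days or preparations.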
